A study of Mus musculus with 9 samples.

Results

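Livers of germ-free mice that drank water with acetate, propionate and butyrate were compared with livers of germ-free mice without the supplement. The comparison used 6 of the 9 livers of the series, chosen by their labels alone: 3 labelled GF and 3 labelled GF+SCFA. All 6 came from male C57BL/6J mice that were kept germ-free and ate chow. GF mice had no supplement, and GF+SCFA mice had free access to filter-sterilised drinking water that held acetate at 67.5 mM, propionate at 25.9 mM and butyrate at 40 mM. The remaining 3 livers, labelled ConvD, came from chow-fed male C57BL/6J mice without supplement that were born germ-free and received the cecal microbiota of conventionally raised donors. ConvD livers served here to estimate the spread, and their values are given beside some genes. Age is 14 weeks in the design text and 19 weeks at dissection in the protocol. Per the protocol, ConvD mice received the microbiota after the age of 14 weeks, so 14 weeks cannot be their age at dissection. Mice were caged by colonisation status and diet, and the supplement was given in the drinking water. Cage and group therefore cannot be told apart, and the labels do not say how long the supplement was given. No measurement of the fatty acids in blood or liver, of water intake or of microbial load was analysed here. Each gene is given in CPM, the usual depth-scaled count (estimated counts over the TMM-scaled library size), in the order of replicates 1, 2 and 3.

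Acetate, propionate and butyrate are the short-chain fatty acids (SCFA) that gut bacteria make when they ferment fibre, and germ-free animals have little of them. After uptake in the gut they reach the liver by the portal vein. There acetate is activated to acetyl-CoA for lipid synthesis or oxidation, propionate is carboxylated and enters the citric acid cycle as succinyl-CoA, and butyrate is oxidised to acetyl-CoA and ketone bodies. They can also act as ligands of the G-protein-coupled receptors Ffar2, Ffar3 and Niacr1, and butyrate inhibits histone deacetylases.

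The libraries held 18193071 to 21627696 estimated counts, with 20814962 in the third GF library. In every one of the 6 livers the hepatocyte markers were abundant, with a summed level of 106360 to 129950 CPM over 8 markers, and the groups overlapped. Of the 8 pancreas markers and the 6 adipose markers, 2 of each passed the filter on low counts. Pancreas markers summed to 20.8 to 21.7 CPM in GF and 23.2 to 26.2 CPM in GF+SCFA livers. Adipose markers summed to 3.53, 2.62 and 9.34 CPM in GF and 12.5, 7.25 and 7.63 CPM in GF+SCFA livers, so these groups overlapped through GF replicate 3. The part of such tissue in the results was not tested. Of the 20325 genes in the tables, 12037 passed that filter. With 3 livers per group, 5 of them were called, that is they had an adjusted p under 0.05 in edgeR's quasi-likelihood test (0.0415% of genes tested). At an unadjusted p under 0.05, 613 genes were higher (5.09%) and 864 lower (7.18%) in GF+SCFA livers. In 1091 genes (9.06%) all 3 GF+SCFA livers lay above all 3 GF livers, and in 1067 (8.86%) all lay below. The median log2 fold change over all genes tested was -0.0062, and 48.7% of them had a positive sign. These shares are the background for the counts of gene lists below.

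One gene rose and 4 fell in GF+SCFA livers. Manf, an endoplasmic reticulum (ER) protein induced when unfolded proteins build up, rose. Sipa1l2, an activator of the GTPase activity of Rap proteins, Col3a1, the chain of type III collagen, Alcam, an adhesion molecule of the immunoglobulin family, and Ppfibp1, the scaffold protein liprin beta 1, fell. The adhesion list used below was drawn up with these calls known, so it is no independent evidence for them. The other lists were also chosen with earlier results of these data known. The ER list counts Manf and the matrix list counts Col3a1, so these lists are no independent evidence either.

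Sipa1l2 was at 9.62, 10.4 and 7.79 CPM in GF livers and at 3.63, 3.18 and 4.14 CPM in GF+SCFA livers. The groups lay far apart, with the lowest GF liver, replicate 3, well above the highest GF+SCFA liver. This fall of 1.35 on the log2 scale (SE 0.15, adjusted p = 0.00293 by edgeR, lower in 3 of 3 livers) was the largest of the calls. It kept an adjusted p under 0.05 in 8 of the 9 fits that left out 1 library, and without GF+SCFA replicate 2 the adjusted p was 0.0507.

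Col3a1 stood at 25.0, 31.2 and 21.3 CPM in GF livers and at 15.4, 14.0 and 14.6 CPM in GF+SCFA livers. The GF+SCFA livers lay close together, and the GF liver nearest to them was again replicate 3. The log2 fold change was -0.82 (SE 0.12, adjusted p = 0.0397 by edgeR). For Manf the GF livers had 60.7, 48.5 and 45.0 CPM and the GF+SCFA livers 81.5, 82.4 and 75.3 CPM. All GF+SCFA livers were above all GF livers, and here GF replicate 3 was the farthest from them. Manf differed by 0.63 on the log2 scale (SE 0.10, adjusted p = 0.0397 by edgeR).

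Alcam was measured at 47.1, 56.2 and 53.8 CPM in GF and 37.8, 37.2 and 34.6 CPM in GF+SCFA livers. Ppfibp1 was measured at 21.2, 24.1 and 23.1 CPM in GF and 15.3, 15.6 and 16.7 CPM in GF+SCFA livers. In both genes the groups did not overlap, and the log2 fold change was -0.52 (SE 0.08 in each, adjusted p = 0.0397 by edgeR). These smaller differences were less stable: among the 9 fits that left out 1 library, the call was lost in 6 for Alcam, 7 for Manf and 8 for Col3a1 and Ppfibp1. Their signs did not change in any of these fits, and the adjusted p reached 0.263 for Alcam, Manf and Ppfibp1 without GF replicate 2 and 0.259 for Col3a1 without GF+SCFA replicate 2.

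Colonised livers gave a different order of levels for these genes. Mean ConvD levels were 8.32 CPM for Sipa1l2, 26.5 CPM for Col3a1 and 44.7 CPM for Alcam. None of these passed the test against GF livers (adjusted p = 0.473, 0.874 and 0.0727 by edgeR). Manf was lower in ConvD than in GF livers, with a mean of 35.3 CPM (log2 fold change -0.54, adjusted p = 0.0038 by edgeR). Ppfibp1 was higher, with a mean of 35.5 CPM (log2 fold change 0.64, adjusted p = 0.000304 by edgeR). Both comparisons use the same 3 GF livers, so they are set side by side only.

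**Figure D1:**
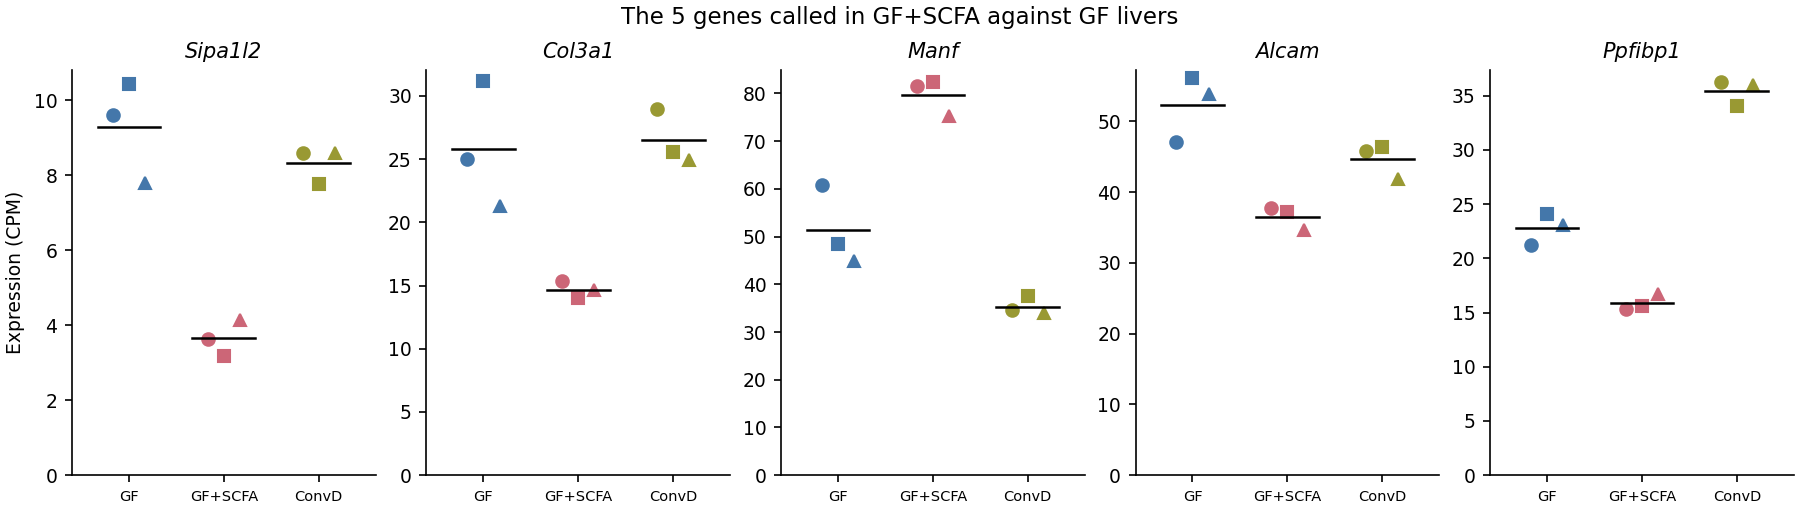
Expression in CPM (y axis, from 0) of the 5 called genes in each liver of the GF, GF+SCFA and ConvD groups (x axis), with circles, squares and triangles for replicates 1, 2 and 3 and lines for the group means of 3 livers. GF and GF+SCFA livers do not overlap in any of the 5 genes, and for Manf and Ppfibp1 the ConvD livers lie on the far side of the GF livers from the GF+SCFA livers.

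Among genes whose groups did not overlap and whose mean count was 50 or more, 9 of the 10 with the smallest p in the higher direction were not called, and they are given as values. Agpat2, an acyltransferase that makes phosphatidic acid for triglyceride and phospholipid synthesis, had 66.1, 64.9 and 67.0 CPM in GF and 82.6, 90.9 and 83.6 CPM in GF+SCFA livers (log2 fold change 0.38, SE 0.07, adjusted p = 0.0769 by edgeR). Fpgs, which adds glutamate residues to folates, had 71.2, 67.9 and 77.9 CPM against 101, 94.6 and 94.4 CPM (log2 fold change 0.42, adjusted p = 0.0852 by edgeR). In both genes the gap between the groups was wider than the range within either. Sec24d, a coat protein of the vesicles that leave the ER, had 60.1, 64.7 and 63.4 CPM against 82.5, 92.0 and 75.8 CPM. Spcs2, a subunit of the signal peptidase, had 62.4, 58.1 and 61.4 CPM against 77.4, 77.2 and 75.7 CPM, and Tmed9, a cargo receptor between ER and Golgi, 53.7, 50.3 and 52.1 CPM against 63.6, 67.1 and 63.0 CPM. These 3 genes of the early secretory route had log2 fold changes of 0.41, 0.34 and 0.31, with adjusted p = 0.0939, 0.0962 and 0.119 by edgeR. The others were Ppapdc1b, a lipid phosphatase (0.70), St5 (0.65), Slc45a3, a sugar transporter (1.00), and Bcl7c, a subunit of a chromatin remodelling complex (0.61).

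In the lower direction, under the same limits, 6 of the 10 genes with the smallest p were not called. Emp2, an epithelial membrane protein, had 11.5, 12.5 and 10.5 CPM in GF and 7.66, 5.61 and 7.20 CPM in GF+SCFA livers (log2 fold change -0.75, SE 0.13, adjusted p = 0.0646 by edgeR). Vim, the intermediate filament of mesenchymal cells, had 13.4, 17.3 and 15.2 CPM against 10.4, 9.83 and 10.1 CPM (log2 fold change -0.59, SE 0.11, adjusted p = 0.0852 by edgeR). Neither gene overlapped between the groups. The log2 fold change was -0.63 for Spata13, -0.84 for Dixdc1, a regulator of Wnt signalling, -0.59 for Ralgps2, an exchange factor of Ral GTPases, and -0.61 for Card10, a scaffold of NF-kB signalling (adjusted p = 0.0852 to 0.0891 by edgeR).

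Genes that take up, sense and use the 3 supplied acids were examined first among the lists, and none was called. The receptors were near or at 0 in liver: Ffar2 had 1 count over the 6 libraries, Ffar3 and Olfr78 had 0, and Niacr1 had 1 to 9 per library. Gpr81, a lactate receptor kept on the same list, had 0 to 2 per library. A count of 0 allows up to 3 counts per library, 0.139 to 0.165 CPM of the library total among these 6, and covers counting error only. None of the 5 receptors passed the filter, so no difference was detectable at this depth. Among the 8 carriers, 4 passed the filter. Slc16a1, the monocarboxylate transporter MCT1, was at 7.87 ± 0.624 TPM in GF and 7.55 ± 0.467 TPM in GF+SCFA livers (SD, n = 3 each), where TPM is a level per gene length. Its partner Bsg, the chaperone of these transporters, was at 264 ± 10.3 and 276 ± 20.3 TPM. Slc16a6, another monocarboxylate transporter, had 2.55, 2.28 and 2.82 CPM against 4.76, 2.68 and 3.16 CPM, and the groups overlapped (log2 fold change 0.46, SE 0.21, adjusted p = 0.405 by edgeR).

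Of the 9 enzymes that join or release the CoA of these acids, 7 were tested, and none of them reached an unadjusted p under 0.05. Acss2, the cytosolic acetyl-CoA synthetase, had 186, 266 and 236 CPM in GF and 210, 191 and 207 CPM in GF+SCFA livers (log2 fold change -0.18, SE 0.19, adjusted p = 0.758 by edgeR). Acsm1, a mitochondrial acyl-CoA synthetase for medium and short chains, had the highest level of the list, 332 ± 14.4 TPM in GF and 317 ± 12.2 TPM in GF+SCFA livers (SD, n = 3 each). Acss3, the mitochondrial synthetase that favours propionate, had 4.56, 6.24 and 9.53 CPM against 10.9, 14.7 and 7.25 CPM. Its groups overlapped through GF replicate 3 and GF+SCFA replicate 3, and its log2 fold change was 0.69 with an SE of 0.34 (adjusted p = 0.463 by edgeR).

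The path from propionate to succinyl-CoA had 13 tested members, 10 with a positive sign, 2 of them at an unadjusted p under 0.05, and a median log2 fold change of 0.06. The 2 became 1 without GF replicate 2, GF+SCFA replicate 1 or GF+SCFA replicate 3. In 6 of the 13 all GF+SCFA livers were above all GF livers. Mmadhc, which directs vitamin B12 to its mitochondrial and cytosolic forms, had 48.0, 48.6 and 54.4 CPM in GF and 58.4, 57.9 and 61.1 CPM in GF+SCFA livers (log2 fold change 0.23, SE 0.07, adjusted p = 0.247 by edgeR). Sucla2, a subunit of succinyl-CoA ligase, had 129, 123 and 126 CPM against 145, 134 and 140 CPM (log2 fold change 0.15, SE 0.07, adjusted p = 0.373 by edgeR). Differences of this size were small beside those of the called genes. Some of the enzymes that carry the flux itself were closer still between the groups. Pcca and Pccb, the subunits of propionyl-CoA carboxylase, had log2 fold changes of 0.06 and -0.02 (SE 0.07 and 0.06), and Mut, the methylmalonyl-CoA mutase, 0.02 (SE 0.08). Mcee, another enzyme of the path, was not among these. It had 31.0, 28.6 and 32.4 CPM in GF and 33.3, 34.7 and 34.8 CPM in GF+SCFA livers, without overlap (log2 fold change 0.16, SE 0.08, adjusted p = 0.419 by edgeR).

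Butyrate oxidation and ketone body formation had 16 tested members, of which 0 reached an unadjusted p under 0.05. Acads, the short-chain acyl-CoA dehydrogenase that takes butyryl-CoA, had 149, 145 and 147 CPM in GF and 154, 162 and 153 CPM in GF+SCFA livers. All GF+SCFA livers were above the GF livers by a narrow margin (log2 fold change 0.09, SE 0.06, adjusted p = 0.612 by edgeR). The median log2 fold change of the list was 0.05, and it ranged from 0.02 to 0.11 when 1 of the 6 libraries was left out.

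**Figure D2:**
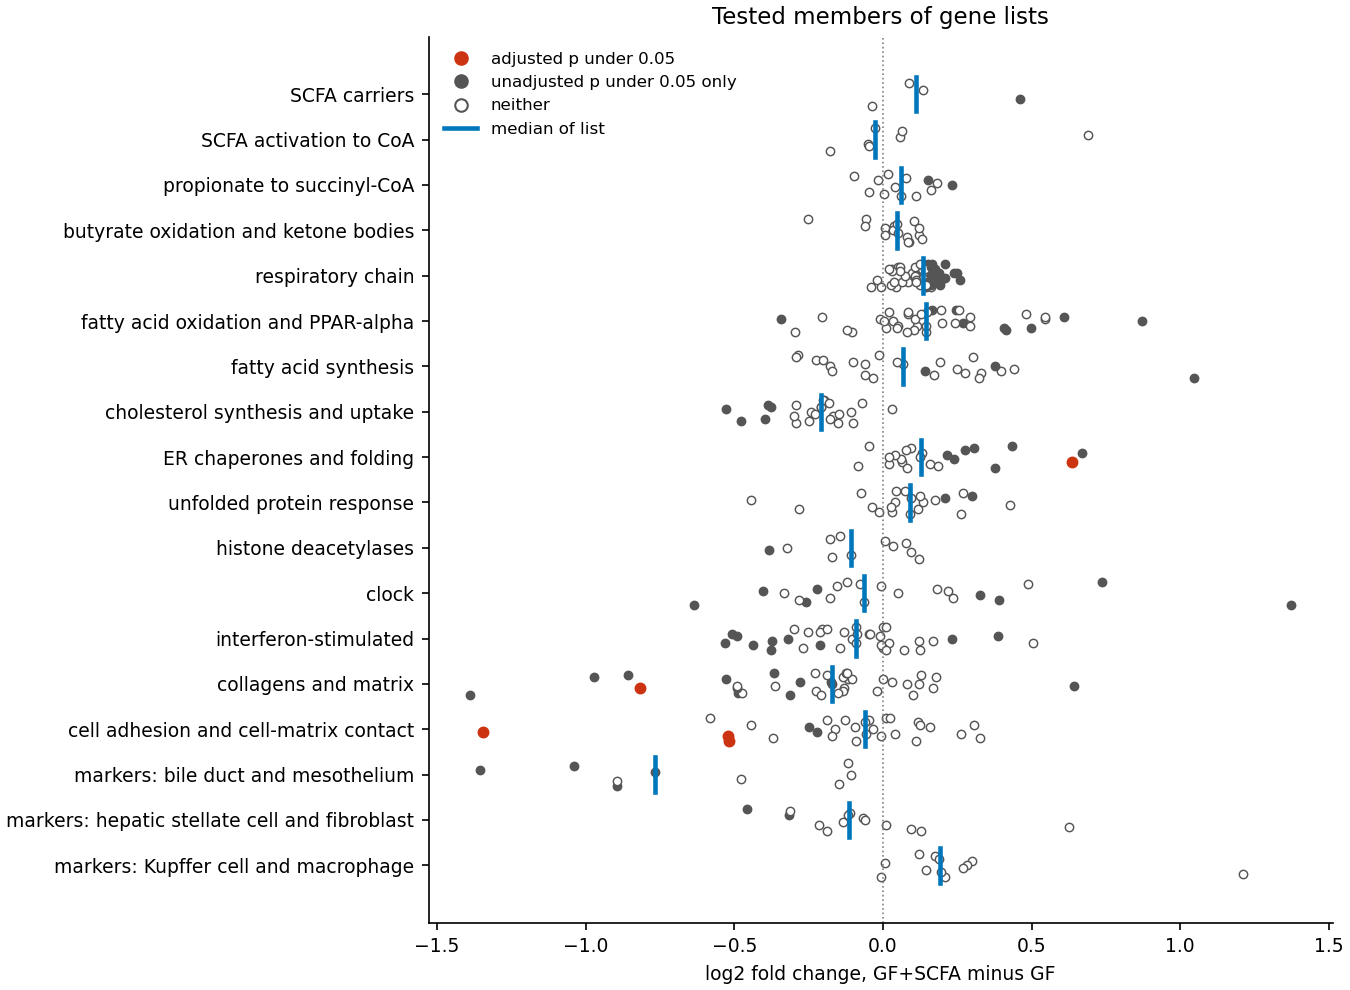
Log2 fold change of GF+SCFA against GF livers (x axis) for each tested member of 18 gene lists (y axis), 3 livers per group, with a blue bar at the median of each list. The called members, in red, are Manf among the ER chaperones, Col3a1 among the matrix genes and 3 adhesion genes, and the members of the SCFA pathways sit close to 0 except for Acss3 and Slc16a6.

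Nuclear genes of the respiratory chain and ATP synthase, the last steps of fuel oxidation, had mostly positive signs, 51 of 54, with a median log2 fold change of 0.14. None was called, but 19 were at an unadjusted p under 0.05 in the higher direction and 0 in the lower, and in 31 the GF+SCFA livers all lay above the GF livers. These are shares above the background of 5.09% and 9.06%, but the members are not independent of each other. Cox6a1, a subunit of cytochrome c oxidase, had 136, 145 and 144 CPM in GF and 169, 167 and 165 CPM in GF+SCFA livers (log2 fold change 0.24, SE 0.06, adjusted p = 0.189 by edgeR). Ndufa5, a subunit of complex I, had 36.3, 33.2 and 33.7 CPM against 40.7, 38.3 and 43.6 CPM (log2 fold change 0.25, SE 0.08, adjusted p = 0.273 by edgeR). Cox5b and Cox5a had log2 fold changes of 0.21 and 0.26. The count at an unadjusted p under 0.05 fell to 4 with GF+SCFA replicate 3 left out, to 7 with GF replicate 2 left out and to 9 with GF replicate 1 left out. With GF replicate 3 left out it reached 22. The median stayed between 0.12 and 0.15 when any 1 of the 6 libraries was left out. The 56 genes of the cytosolic ribosome had a median of 0.02, or -0.011 without GF+SCFA replicate 3, with 1 at an unadjusted p under 0.05.

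Fatty acid oxidation genes and other targets of PPAR-alpha, the receptor that senses fatty acids in hepatocytes, had 33 of 39 positive signs and a median log2 fold change of 0.14. None was called, 8 were at an unadjusted p under 0.05 in the higher direction and 1 in the lower. Acot1, an acyl-CoA thioesterase, had 29.1, 21.5 and 33 CPM in GF and 41.1, 45.1 and 41.2 CPM in GF+SCFA livers (log2 fold change 0.61, SE 0.17, adjusted p = 0.238 by edgeR). It belongs to a family of near-identical genes whose reads may have been divided among members. Plin5, a coat protein of lipid droplets, had 21.9, 19.8 and 39.5 CPM against 60.1, 41.2 and 47.8 CPM (log2 fold change 0.87, SE 0.28, adjusted p = 0.324 by edgeR), so GF replicate 3 was nearly level with the lowest GF+SCFA liver. The count of 8 was 4 without GF replicate 1, GF replicate 2, GF+SCFA replicate 1 or GF+SCFA replicate 2. It was 11 without GF replicate 3, with 3 members then called, and 12 without GF+SCFA replicate 3.

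Fatty acid synthesis showed no common sign, with 14 of 25 members positive. Its leading members were Agpat2, given above, and Thrsp, a lipogenic protein, with 520, 371 and 660 CPM in GF and 1070, 1043 and 1090 CPM in GF+SCFA livers. The 3 GF+SCFA livers were far above the GF livers and close to each other (log2 fold change 1.05, SE 0.25, adjusted p = 0.218 by edgeR).

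Cholesterol synthesis and uptake genes, which the transcription factor SREBP2 drives when sterols are low, had 23 of 24 negative signs and a median log2 fold change of -0.21. None was called, and 6 were at an unadjusted p under 0.05, all lower, against a background of 7.18%. Stard4, a sterol carrier, had 94.8, 111 and 105 CPM in GF and 83.4, 73.4 and 82.8 CPM in GF+SCFA livers, without overlap (log2 fold change -0.38, SE 0.08, adjusted p = 0.119 by edgeR). Idi1, an isomerase of the isoprenoid steps, had 323, 445 and 405 CPM against 317, 320 and 254 CPM (log2 fold change -0.40, SE 0.12, adjusted p = 0.238 by edgeR). Mvd, a decarboxylase of the mevalonate steps, and Sqle, the squalene epoxidase, had log2 fold changes of -0.53 and -0.48. The size of this difference rested on single livers: the median was -0.31 and the count 12 without GF replicate 1, and the median was -0.11 and the count 4 without GF replicate 2. The count was 12 without GF+SCFA replicate 1, 4 without GF+SCFA replicate 2 and 3 without GF+SCFA replicate 3.

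Manf belongs to the ER chaperones and folding enzymes, which help secreted proteins fold. Many genes of the ER stress response carry an element in their promoters that the factors ATF6 and XBP1 use together with NF-Y, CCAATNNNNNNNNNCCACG. In RefSeq promoter windows (GRCm38.p6, 250 bases before the start site, both strands), the element was found in 37 of 32851 windows (0.113%). Counted by gene, it was found in 35 of 27025 genes with a window. Among these were 8 of the 20 tested ER chaperone genes that had a window and 2 of 19 tested genes of the unfolded protein response. The other 12 ER chaperone windows did not hold these letters, and the promoter of Manf was not analysed here. The motif is known from ER stress genes, so a larger share in these 2 lists is no finding of these data. The elements are shown because they were found in a larger share of these genes than of all genes with a window. Each is written 5′ to 3′ in the sense of the motif, with the CCAAT and CCACG letters in capitals.
Hspa5: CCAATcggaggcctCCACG
Ero1lb: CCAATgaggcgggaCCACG
Creld2: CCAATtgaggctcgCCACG
Calr: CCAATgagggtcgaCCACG
Canx: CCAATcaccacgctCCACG
Dnajc3: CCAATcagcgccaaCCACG
Pdia6: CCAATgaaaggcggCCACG
Hsp90b1, farther from the start site: CCAATcgcaaggagCCACG
Hsp90b1, nearer to the start site: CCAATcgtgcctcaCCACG
Syvn1: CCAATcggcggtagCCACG
Derl3: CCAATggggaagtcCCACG
The windows of Hspa5 and Ero1lb are printed whole, on the gene strand and with the element in capitals, because these are tested members of small p that carry it. The Hspa5 window is chr2:34771840-34772089 on the plus strand, and its element begins 65 bases before the start site.
Hspa5 window: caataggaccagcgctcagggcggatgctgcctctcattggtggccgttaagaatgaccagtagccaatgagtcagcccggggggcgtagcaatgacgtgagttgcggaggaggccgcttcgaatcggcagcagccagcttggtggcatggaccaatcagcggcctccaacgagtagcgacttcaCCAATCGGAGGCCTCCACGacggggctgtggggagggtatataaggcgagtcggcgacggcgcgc
The Ero1lb window is chr13:12565633-12565882 on the plus strand, and its element begins 201 bases before the start site. The element lies on the opposite strand, so it is read in this window as its reverse complement.
Ero1lb window: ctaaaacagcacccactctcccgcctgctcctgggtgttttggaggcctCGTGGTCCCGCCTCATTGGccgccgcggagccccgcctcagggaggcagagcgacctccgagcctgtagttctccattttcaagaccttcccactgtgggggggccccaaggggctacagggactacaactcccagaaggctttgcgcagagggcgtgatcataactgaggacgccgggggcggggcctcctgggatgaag

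Of the 22 tested ER chaperone genes, 20 had a positive sign, 8 were at an unadjusted p under 0.05 in the higher direction and 0 in the lower, and 1, Manf, was called. The median log2 fold change of the list was 0.13. Hspa5, the chaperone BiP, had 802, 687 and 655 CPM in GF and 962, 998 and 822 CPM in GF+SCFA livers, without overlap (log2 fold change 0.38, SE 0.10, adjusted p = 0.189 by edgeR). Ero1lb, which oxidises the enzymes that form disulfide bonds, had 66.8, 62.5 and 54.5 CPM against 77.6, 80.5 and 68.9 CPM (log2 fold change 0.31, SE 0.09, adjusted p = 0.238 by edgeR). Txndc5, a protein disulfide isomerase, had a log2 fold change of 0.24. The 8 genes whose windows hold the element had a median log2 fold change of 0.11, from -0.05 to 0.67, and the 12 whose windows do not hold it had a median of 0.10, from -0.08 to 0.28. Their medians were thus alike, and 3 of each were at an unadjusted p under 0.05.

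GF replicate 3 was the lowest GF liver for Manf, Hspa5 and Ero1lb, and without it the median of the ER list was 0.05. Without GF+SCFA replicate 3 the median was 0.19. The count at an unadjusted p under 0.05 was 6 to 8 whichever of the 6 libraries was left out. Sensors and effectors of the unfolded protein response had 16 of 21 positive signs, a median of 0.09, 2 members at an unadjusted p under 0.05 and 0 called. That count was 4 without GF replicate 1, and 1 without GF replicate 2, GF+SCFA replicate 2 or GF+SCFA replicate 3. The median was 0.050 without GF replicate 2, 0.048 without GF+SCFA replicate 2 and 0.15 without GF+SCFA replicate 1. Herpud1, an ER protein that helps degrade misfolded proteins, had 523, 552 and 533 CPM in GF and 630, 756 and 595 CPM in GF+SCFA livers (log2 fold change 0.30, SE 0.10, adjusted p = 0.269 by edgeR). Syvn1, the ubiquitin ligase of the same route, had 66.9, 54.0 and 47.4 CPM against 69.4, 90.6 and 65.9 CPM, and the groups overlapped (log2 fold change 0.43, SE 0.22, adjusted p = 0.493 by edgeR).

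Col3a1 belongs to the collagens and matrix proteins, which stellate cells and portal fibroblasts lay down. Of 37 tested members, 29 had a negative sign, 12 were at an unadjusted p under 0.05 in the lower direction and 1 in the higher, and the median log2 fold change was -0.17. In 13 members all GF+SCFA livers were below all GF livers, beside a background of 8.86%. Col1a1, a chain of type I collagen, had 3.48, 5.10 and 2.68 CPM in GF and 1.47, 1.39 and 1.42 CPM in GF+SCFA livers (log2 fold change -1.39, SE 0.29, adjusted p = 0.13 by edgeR). Col6a2, a chain of type VI collagen, had 2.61, 3.41 and 3.29 CPM against 1.19, 1.79 and 1.74 CPM (log2 fold change -0.97, SE 0.22, adjusted p = 0.141 by edgeR). Col4a1, a chain of the basement membrane, had 25.3, 27.4 and 25.5 CPM against 18.3, 20.6 and 21.9 CPM (log2 fold change -0.37, SE 0.09, adjusted p = 0.157 by edgeR). In each of the 3 genes the groups were apart. The count of 12 was 8 without GF replicate 2 and 14 without GF replicate 3, and the median stayed between -0.19 and -0.16.

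Markers of other liver cells are given beside these matrix genes, and their part in the result was not tested. In bulk liver, fewer cells of a type and less RNA per cell cannot be told apart. Bile duct and mesothelium markers had negative signs in 9 of 9 tested members, with a median log2 fold change of -0.77, 4 at an unadjusted p under 0.05 and 0 called. Spp1, osteopontin, had 42.6, 43.0 and 36.9 CPM in GF and 26.0, 24.2 and 21.9 CPM in GF+SCFA livers (log2 fold change -0.77, SE 0.14, adjusted p = 0.119 by edgeR). Krt19 and Krt7, keratins of bile ducts, were low in all 6 livers, at 0.109 to 1.55 CPM, and had log2 fold changes of -0.89 and -1.35. Upk3b, of the mesothelium, had a log2 fold change of -1.04. The summed level of this list was 363 to 436 CPM in GF and 304 to 388 CPM in GF+SCFA livers, most of it from Krt8 and Krt18, which hepatocytes also make.

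Stellate cell and fibroblast markers showed less difference, with 10 of 14 negative signs, a median of -0.11 and 2 members at an unadjusted p under 0.05. The median was -0.022 without GF replicate 3, with 8 of 14 negative signs, -0.072 without GF+SCFA replicate 1 and -0.19 without GF replicate 2. The count was 1 without GF replicate 2, GF+SCFA replicate 1 or GF+SCFA replicate 3. Their summed level was 357 to 409 CPM in GF and 327 to 369 CPM in GF+SCFA livers, and the groups overlapped. Pdgfrb, a receptor of these cells, had 5.43, 5.49 and 5.02 CPM against 4.42, 3.77 and 3.44 CPM (log2 fold change -0.46, SE 0.16, adjusted p = 0.284 by edgeR), while Acta2, the actin of activated cells, had a log2 fold change of 0.63 with overlapping groups. Endothelial markers had 8 of 12 negative and 4 positive signs and a median of -0.04. Their sums of 314 to 327 CPM in GF and 292 to 323 CPM in GF+SCFA livers overlapped. Of these markers 3 were at an unadjusted p under 0.05, all lower, led by Lyve1, a receptor for hyaluronan on sinusoidal and lymphatic endothelium. Lyve1 had 7.44, 7.87 and 9.76 CPM in GF and 4.42, 3.18 and 4.36 CPM in GF+SCFA livers (log2 fold change -1.07, SE 0.24, adjusted p = 0.153 by edgeR). Kupffer cell and macrophage markers had 11 of 12 positive signs and a median of 0.19, with 0 at an unadjusted p under 0.05 and overlapping sums of 388 to 465 and 414 to 512 CPM. Leaving out GF replicate 3 gave a median of 0.29 and 3 members at an unadjusted p under 0.05, leaving out GF+SCFA replicate 1 or 2 gave 1 such member, and leaving out GF replicate 2 gave a median of 0.10. T and NK cell markers summed to at most 7.8 CPM, and B and plasma cell markers to at most 3.31 CPM, in any of the 6 livers.

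Histone deacetylases, the enzymes that butyrate inhibits, had 0 of 11 members called and 1 at an unadjusted p under 0.05. Hdac11, the only class IV member, had 49.3, 47.4 and 42.3 CPM in GF and 37.8, 37.3 and 31.5 CPM in GF+SCFA livers (log2 fold change -0.38, SE 0.09, adjusted p = 0.141 by edgeR). All GF+SCFA livers were below all GF livers. Hdac11 passed the test in edgeR without GF replicate 3 (adjusted p = 0.0231) and in DESeq2 with all 9 libraries (adjusted p = 0.036). It was not alone in this: 28 members of the gene lists passed in the first fit and 19 in the second. The lists hold 750 different tested genes and were chosen with earlier results of these data known. Over all genes, 173 of 12143 passed in the first fit and 82 of 10991 in the second. Spp1, Lyve1 and Col1a1 were among the list members that passed in the second, with adjusted p = 0.000476, 0.00855 and 0.00875 by DESeq2. Hdac1, Hdac2 and Hdac3, the class I enzymes of most co-repressor complexes, had log2 fold changes of 0.12, 0.08 and 0.09, each with overlapping groups. These are transcript levels and say nothing of enzyme activity or histone acetylation.

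Interferon-stimulated genes had 25 of 36 negative signs and a median log2 fold change of -0.09, with 8 at an unadjusted p under 0.05 in the lower direction, 2 in the higher and 0 called. Tap1, a peptide transporter for antigen presentation, had 20.6, 22.2 and 16.2 CPM in GF and 13.2, 14.2 and 13.5 CPM in GF+SCFA livers (log2 fold change -0.53, SE 0.13, adjusted p = 0.168 by edgeR). Iigp1, an interferon-induced GTPase, had 356, 410 and 424 CPM against 304, 298 and 317 CPM (log2 fold change -0.37, SE 0.11, adjusted p = 0.238 by edgeR). Neither gene overlapped between the groups, though GF replicate 3 was the GF liver nearest to the GF+SCFA livers in Tap1 and the farthest in Iigp1. The count of 8 lower members was 3 without GF replicate 2, 4 without GF+SCFA replicate 3 and 5 without GF replicate 1 or GF+SCFA replicate 2. It was 6 without GF+SCFA replicate 1 and 7 without GF replicate 3.

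Clock genes had 4 members at an unadjusted p under 0.05 in each direction among 21, and none was called. The higher count was 2 without GF replicate 2 or GF+SCFA replicate 3 and 6 without GF replicate 3. Without GF replicate 3, 3 members were called higher and 2 lower. Arntl, the activator of the clock that is also named Bmal1, had 0.706, 0.594 and 0.845 CPM in GF and 1.70, 1.99 and 1.91 CPM in GF+SCFA livers (log2 fold change 1.37, SE 0.24, adjusted p = 0.0646 by edgeR). All of its GF+SCFA levels were above all of its GF levels, at low counts. Dbp and Tef, output factors of the clock, had negative values: Tef had 205, 194 and 179 CPM against 172, 168 and 156 CPM (log2 fold change -0.22, SE 0.07, adjusted p = 0.273 by edgeR), and Dbp is given with GF replicate 3 below. The labels do not give the hour of dissection of any mouse.

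The number of called genes depended on GF replicate 3 more than on any other of the 6 livers. Without it 173 of 12143 genes passed, 63 higher (0.519%) and 110 lower (0.906%) in GF+SCFA livers, against 5 with it. At an unadjusted p under 0.05 there were then 857 higher (7.06%) and 1105 lower (9.1%). Leaving out any other of the 6 libraries gave 0 to 3 calls, 3 without GF replicate 1, 0 without GF+SCFA replicate 2 and 1 in each other case. The same liver set the count in the other fits: in edgeR on the 6 livers alone the count was 4 with all of them, 386 without GF replicate 3 and 1 to 11 without any other. DESeq2 called 34 genes higher (0.309%) and 48 lower (0.437%) of 10991 with an adjusted p, 82 in all, with 297 without GF replicate 3 and 11 to 44 without any other. All 5 calls made with 9 livers were among the 173 and among the 82, and 55 genes were in both of these larger sets.

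**Figure D3:**
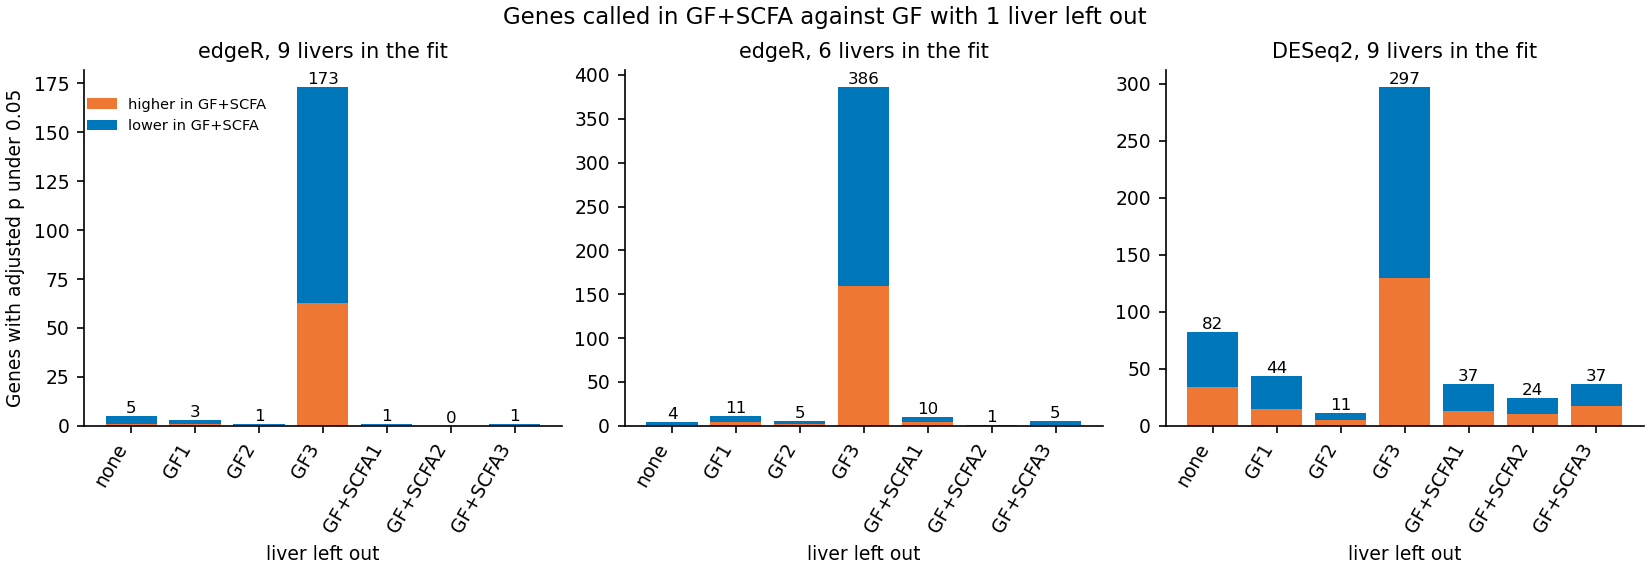
Number of genes with an adjusted p under 0.05 in GF+SCFA against GF (y axis, from 0, with its own scale in each panel) when the liver named on the x axis is left out, for edgeR with 9 livers, edgeR with 6 livers and DESeq2 with 9 livers. Leaving out GF replicate 3 gives 173, 386 and 297 genes, and none of the other 5 livers shown gives more than 3, 11 and 44.

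Over all 12037 genes, the third GF liver was no nearer to its own group than to the other. The root mean square difference of log2 CPM was 0.366 between GF replicates 3 and 1 and 0.356 between GF replicates 3 and 2. It was 0.332 to 0.341 between GF replicate 3 and the GF+SCFA livers, which differed from each other by 0.328 to 0.339. GF replicates 1 and 2 differed from each other by 0.336 and from the GF+SCFA livers by 0.363 to 0.415. In 55% of genes GF replicate 3 was closer to the mean of the GF+SCFA livers than to the mean of the other GF livers. For the other 5 libraries the matching share was 39.1% to 46%. Each share sets a mean of 2 livers of the own group against a mean of 3 of the other, which by itself favours the other group somewhat. Chi-square per degree of freedom was 54.4 between GF replicates 1 and 3 and 40.6 between GF replicates 2 and 3, and 11.4 to 15.3 in the other pairs within a group. The depth of this library was within the range of the others, and the share of its 10 largest genes was 20.9%, within the 20.9% to 23.3% of all 9 libraries. Nothing in the labels sets this mouse apart.

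In 126 of the 173 genes called without it, GF replicate 3 was on the GF+SCFA side of the midpoint, in 59 it was within the range of the GF+SCFA livers and in 14 beyond them. It was within the range of GF replicates 1 and 2 in 9 genes. On the log2 scale it stood, at the median gene, 76.4% of the way from the mean of GF replicates 1 and 2 to the mean of the GF+SCFA livers. These genes were picked by a fit that did not use this liver and were mostly not called with it, which by itself favours genes where it stands toward the GF+SCFA livers, so the counts are a description. With it in the fit, 150 of the 173 had an unadjusted p under 0.05, in 100 the groups did not overlap, and the median size of the log2 fold change was 0.454, beside 0.584 without it.

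Cdkn1a, the cell cycle inhibitor p21, showed the pattern most plainly, with 0.815, 1.24 and 5.21 CPM in GF and 7.26, 6.26 and 8.18 CPM in GF+SCFA livers. GF replicates 1 and 2 were far below, and GF replicate 3 stood 83.2% of the way to the GF+SCFA mean. The log2 fold change was 2.80 without it (adjusted p = 6.09e-05 by edgeR) and 1.54 with it (SE 0.56, adjusted p = 0.357). St3gal5, which makes the ganglioside GM3, had 169, 177 and 310 CPM against 259, 292 and 320 CPM, so this liver lay within the GF+SCFA range (adjusted p = 0.00204 without it and 0.534 with it, by edgeR). Actg1, a cytoplasmic actin, had 99.6, 126 and 194 CPM against 218, 177 and 194 CPM, with the same position. Slc45a3 was at 15.7, 12.1 and 22.0 CPM in GF and 33.7, 33.4 and 32.8 CPM in GF+SCFA livers, and Insig2, which holds SREBP factors in the ER, at 51.3, 61.8 and 76.9 CPM and 96.6, 110 and 111 CPM. In these genes GF replicate 3 stood 53.0% and 49.4% of the way, between the groups. Plin5, Ormdl3, Hacl1, Fam35a and Gde1 completed the 10 leading genes of this direction.

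Among the lower genes Dbp had 74.2, 87.6 and 49.2 CPM in GF and 47.2, 47.8 and 40.6 CPM in GF+SCFA livers. GF replicate 3 was close to the highest GF+SCFA liver, 85.0% of the way to their mean. The log2 fold change was -0.84 without it (adjusted p = 0.000515 by edgeR) and -0.64 with it (SE 0.18, adjusted p = 0.27). Notch2, a receptor in bile duct and vessel formation, had 45.7, 49.98 and 31.0 CPM against 27.6, 29.7 and 26.4 CPM, and Sort1, a sorting receptor for lipoproteins, 31.7, 39.5 and 24.1 CPM against 23.2, 19.2 and 19.8 CPM. In both genes this liver stood just above the GF+SCFA livers. Parp14, an interferon-induced ADP-ribosyltransferase, had 47.2, 42.0 and 32.2 CPM against 29.4, 29.4 and 27.3 CPM. Dclk3, Tnrc18, Rnf152 and Plekhg3, with Sipa1l2 and Col3a1, completed the 10, and for Plekhg3 this liver was below all GF+SCFA livers. The calls themselves were not of this kind in every case: GF replicate 3 was 24.9% of the way for Sipa1l2 and 42.3% for Col3a1, but it was on the far side of the GF mean for Manf, Alcam and Ppfibp1 (-49.1%, -13.4% and -6.15%).

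**Figure D4:**
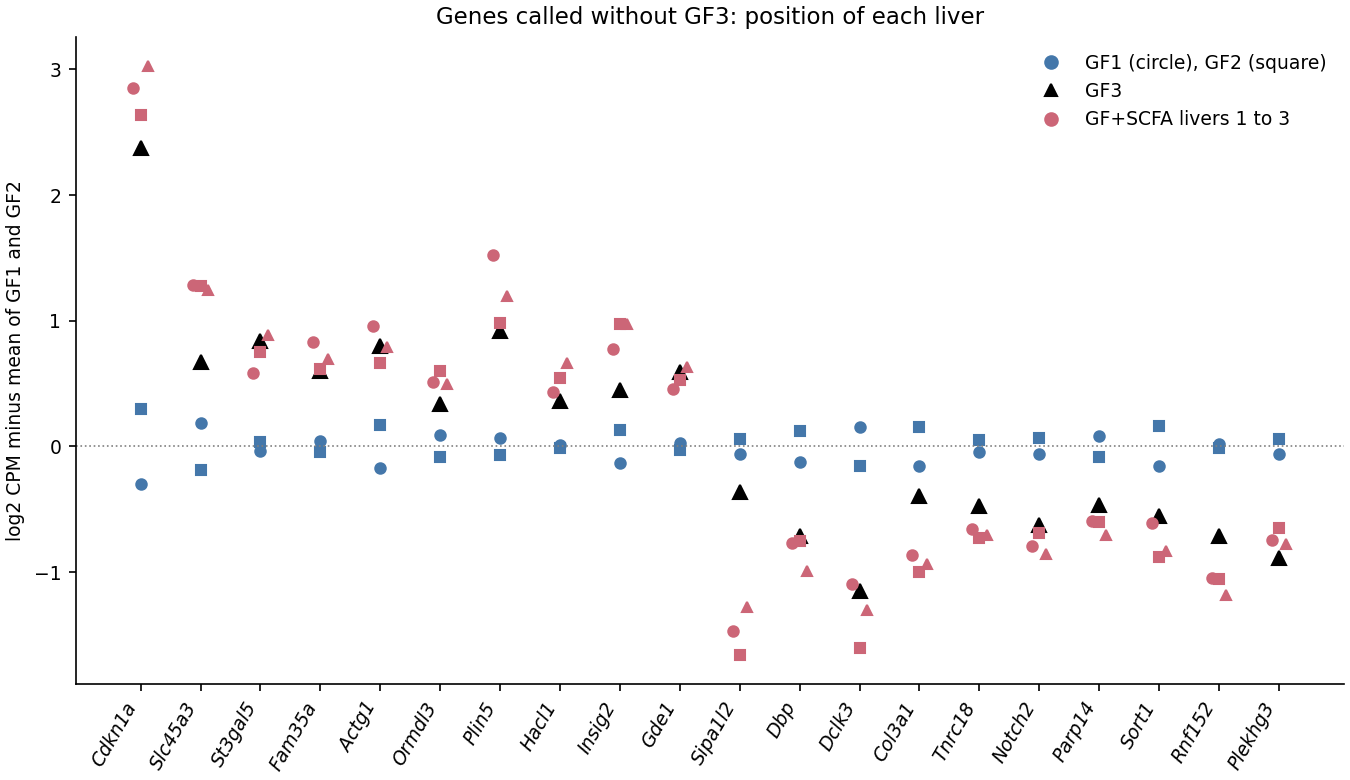
Position of each liver on the log2 scale, as log2 CPM minus the mean of GF replicates 1 and 2 (y axis), for the 10 genes of smallest adjusted p in each direction among those called without GF replicate 3 (x axis). GF replicate 3, in black, lies on the same side of 0 as the GF+SCFA livers in all 20 genes shown, from 24.9% of the way for Sipa1l2 to 122.5% for Plekhg3.

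Genes of the glucocorticoid and fasting response, 21 tested, had a median log2 fold change of 0.31 with it and 0.44 without it, and 3 and 9 members at an unadjusted p under 0.05 in the higher direction. Other livers moved this list too: the median was 0.07 without GF replicate 1, 0.15 without GF replicate 2 and 0.14 without GF+SCFA replicate 3, with 2, 1 and 1 such members, and there were 2 without GF+SCFA replicate 1. Angptl4, a lipase inhibitor of the fasting response, had 127, 132 and 176 CPM in GF and 170, 200 and 209 CPM in GF+SCFA livers, and Per1, a clock gene that glucocorticoids induce, 37.9, 36.5 and 50.6 CPM against 49.3, 50.5 and 47.3 CPM. GF replicate 3 lay among the GF+SCFA livers for Angptl4 and slightly above all of them for Per1. Targets of CAR and PXR, the receptors for drugs and bile acids, had 3 of 31 members at an unadjusted p under 0.05 in the higher direction with it and 10 without it, of which 5 were called. Their number was 1 without GF replicate 1, GF replicate 2, GF+SCFA replicate 1 or GF+SCFA replicate 2. Nr1i2, the gene of PXR itself, had 68.2, 69.5 and 89.1 CPM against 94.0, 99.1 and 89.7 CPM. Cyp2b10, the classic target of CAR, had 2.93, 8.12 and 22.3 CPM against 39.8, 33.2 and 32.3 CPM (log2 fold change 1.64, SE 0.73, adjusted p = 0.438 by edgeR), with a wide spread among the GF livers.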

How the data were processed

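Livers were sequenced as TruSeq Stranded mRNA libraries, per the labels' protocols. Per the submitters' processing notes, the tools were Bowtie2 and RSEM 1.2.23, and the build was mm9. Which Bowtie2 version and strand setting applied was not given in the sources used here. A gene and its antisense partner may therefore share reads. Per the file headers, the deposited tables give estimated counts (RSEM expected counts, not normalised), TPM and FPKM. FPKM values were not used. Of the positive expected counts deposited, 46.7% were not whole, since RSEM splits ambiguous reads between genes. Deposited TPM values, normalised by the authors for length and depth, are used for levels of the SCFA genes and for 1 alternative.

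After rounding, the expected counts went into edgeR 4.0.16 (R 4.3.3): filterByExpr (minimum count 10), TMM factors (0.935 to 1.06), a no-intercept model of 3 groups over 9 libraries fitted robustly by quasi-likelihood with 6 residual degrees of freedom, and Benjamini-Hochberg adjustment over 12037 genes. A called gene has an adjusted p under 0.05. The SE is the log2 fold change over the square root of F. Common BCV was 10.6%. No libraries were copies of each other. The design text calls the samples biological replicates without naming animals, so the p-values reflect only how far these samples spread, which may be technical. The code was tested on simulated data.

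The comparison, the 41 gene lists and the named genes were chosen with earlier results of these data known. Of 839 list entries, 836 were found (822 by symbol, 13 by older symbol, 1 by accession, through a RefSeq table of GRCm38.p6). Hmgcs1, Col6a3 and Trbc2 were not matched. Some genes are in several lists. Lists were not tested as sets. Named genes are the calls, the 10 genes of smallest p in each direction with a mean count of at least 50 and no overlap, tested members of the SCFA lists, up to 4 members of smallest p in each other list, and the 10 genes of smallest adjusted p in each direction without GF replicate 3. Other genes named were chosen after their values were seen.

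Alternatives were other scaling, no filter, 6 libraries, DESeq2 1.42.0, limma 3.58.1 on log2(TPM + 1), dispersions that are not robust, a replicate block and each library left out. The DESeq2 fits and the fits of 6 libraries that each left out 1 library were chosen after seeing the data, and the other alternatives, DESeq2 on all 9 libraries included, were listed earlier. Intervals for 0 counts cover counting error only.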

Additional observations from a re-analysis of the deposited data

How the results depend on the processing

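The count of 5 called genes was also 5 with RLE or upper-quartile factors and with the replicate block (3 of the 5 shared), and 4 with 6 libraries, of which 1 was shared. It was 9 with library totals, 24 with no filter on low counts, 82 with DESeq2, and 1 with limma-trend on TPM and with dispersions that are not robust. Leaving out 1 of the 9 libraries gave 0 (GF+SCFA replicate 2) to 173 (GF replicate 3). In the order GF replicates 1, 2, 3 and GF+SCFA replicates 1, 2, 3, DESeq2 gave 44, 11, 297, 37, 24 and 37, and edgeR on 6 libraries gave 11, 5, 386, 10, 1 and 5. Called members of the gene lists, 5 of the 750 different genes tested, were 2 with 6 libraries and 19 with DESeq2. They were 1 with limma-trend, 1 with dispersions that are not robust, and 0 to 28 when a library was left out. The replicate block changed no count by over 1.5 times. Deviations from the group mean correlated by 0.0859, 0.0768 and 0.139 between samples with the same number, and by -0.104 to 0.0242 between the others. Each sample correlated best with its own number. With 3 samples per group, these correlations cannot decide whether the numbers pair the samples.

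Of 3221 values of 180 named genes under 18 alternatives, 3068 kept sign and side of the threshold, 44 lost it, 100 gained it and 9 changed sign. All 9 came from leaving out a library. The log2 fold change then ranged from -0.027 to 0.16 for Acot12, -0.031 to 0.20 for Alas2, -0.39 to 0.14 for Cela2a, -1.11 to 0.16 for Egr1, -0.37 to 0.025 for Hba-a1, -0.53 to 0.057 for Hbb-b2 and -0.28 to 0.46 for Igj. Scaling moved the median gene by under 0.01. Differences in genes of few counts, such as the receptors, could not be measured at this depth.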

Other observations

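One of the 82 genes that DESeq2 called was Gm14440, a gene of a zinc finger family whose members are near-identical. It was chosen after its values were seen. It had 0.0543, 0 and 0 CPM in GF livers and 10.7, 2.63 and 16.9 CPM in GF+SCFA livers. ConvD livers had 0, 13.3 and 12.5 CPM, so 1 of them resembled the GF livers. The adjusted p was 0.0146 by DESeq2 and 0.324 by edgeR, and since RSEM divides reads among similar genes, the value of this single gene is uncertain.

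Some genes of other lists also separated the groups without being called. Elovl3, a fatty acid elongase with higher levels in male liver, had 59.7, 48.1 and 59.2 CPM in GF and 67.9, 83.9 and 107 CPM in GF+SCFA livers (log2 fold change 0.63, adjusted p = 0.258 by edgeR). Saa4, a constitutive serum amyloid A, had 414, 432 and 506 CPM against 683, 588 and 569 CPM (log2 fold change 0.44, adjusted p = 0.281 by edgeR). Hmox1, heme oxygenase 1, had 12.2, 11.9 and 15.7 CPM against 16.5, 19.5 and 20.6 CPM (log2 fold change 0.50, adjusted p = 0.339 by edgeR). In all 3 genes the GF+SCFA livers lay above the GF livers.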
